A study of Mus musculus with 5 samples.

Results

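The replication-dependent histone genes were described here in Gfi1 and Lsd1 ChIP-seq of mouse medulloblastoma. They were taken by name, as all protein-coding genes of GENCODE release M21 whose symbol starts with Hist1h, Hist2h, Hist3h or Hist4h, and 67 of 21938 protein-coding genes on chromosomes 1 to 19, X and Y fitted this rule. MG tumors were made by infecting Prominin1+ neural stem cells from the cerebella of P5 to P7 pups of C57BL/6 background with retroviruses encoding Myc T58A and Gfi1, and by transplanting the cells into NSG mice, which lack most lymphocytes. Gfi1 in these tumors is thus encoded by a virus, and viral and endogenous protein were not told apart. Chromatin of 2 such tumors, numbered 39 and 41 and labelled WT, was immunoprecipitated with a polyclonal antibody to Gfi1 and with another to Lsd1, which gave 4 libraries. The control of the series is input chromatin pooled from MGB tumors, labelled as Myc and Gfi1b tumors, for which no peak list was analysed here, so that the signal of chromatin without antibody at these genes is not known.

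Gfi1 is a zinc finger repressor, and Lsd1 (Kdm1a) is a histone demethylase that is brought to DNA by factors such as Gfi1. The replication-dependent genes encode the linker histone H1 and the core histones H2A, H2B, H3 and H4 that package newly made DNA. They are short, mostly without introns, lie in clusters, are transcribed mainly in S phase, and their mRNAs end in a conserved stem-loop in place of a poly(A) tail. Tumor tissue holds dividing and resting cells of more than a single type, and more cells with a bound gene cannot be told apart from more binding per cell.

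By type, the 67 genes comprised 6 of H1, 18 of H2A, 18 of H2B, 12 of H3 and 13 of H4. The Hist1 cluster on chromosome 13 held 54 of them in a pair of stretches, with 23 genes in chr13:21715763-22043676 and 31 genes in chr13:23531050-23934851 (mm10). Hist2 held 10 genes in chr3:96219865-96270132, Hist3 held 2 on chromosome 11, and Hist4 was the single gene Hist4h4 on chromosome 6. The name of the set was checked against the reference sequence. The stem-loop, with its stem on either side of a loop of 4 letters and read on the strand of the gene with some letters free, was found within 200 bases past the stop codon in 58 of 67 genes (86.6%) and in 2 of 21871 other protein-coding genes, which were H2afx and H2bfm. It lay a median of 35 bases from the stop. The genes in which these letters were not in this window were Hist2h2be, Hist1h4j, Hist1h2an, Hist1h2bp, Hist1h2bq, Hist1h2br, Hist1h3g, Hist1h4b and Hist1h4a. The sequences found are shown because they group the genes by type, with the loop in capitals and the stem in lower case.
38 genes of H1, H2A, H2B and H3: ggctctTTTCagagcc
9 genes of H1, H2A, H2B and H3: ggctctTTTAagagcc
8 genes of H4: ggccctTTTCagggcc
2 genes of H4: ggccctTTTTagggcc
1 gene of H2A: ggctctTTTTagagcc
A stem with ggccct was found in H4 genes only, and a stem with ggctct in the other types only, among the 58 genes.

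A gene was counted as having a peak when a deposited peak touched the gene or the 1 kb on either side of it. By this rule 65 of 67 genes had a Gfi1 peak in tumor 39, in tumor 41, and likewise an Lsd1 peak in both tumors (97.0% each), while of all protein-coding genes 68.1% and 58.1% had a Gfi1 peak and 62% and 64.9% an Lsd1 peak in tumors 39 and 41. The same 65 genes were found in all 4 libraries, against 56.6% of all protein-coding genes. Since a short gene offers less room for a peak, the 1530 other protein-coding genes of at most 2 kb are given too, of which 20.6% had a peak in all 4 libraries. No test was made of these shares, since neighboring histone genes share peaks and are not independent.

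The remaining 2 genes had no peak within 1 kb in any library. They were Hist1h2ba and Hist1h2aa, which encode the testis forms of H2B and H2A and lie head to head on chromosome 13 at 23933773-23934156 and 23934462-23934851. They are the last members of the second Hist1 stretch. Both held the stem-loop, as did most of the other genes.

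The peaks at these genes also ranked high within their lists. Each peak carries a score, here the value that the authors' peak caller wrote, and because scores of different lists are on different scales, each was turned into a percentile from 0 to 100 among the peaks of its own list. The median percentile of the highest peak at the 65 genes was 94.7 (tumor 39) and 98.1 (tumor 41) with the Gfi1 antibody, averaging 96.4 ± 2.35 (SD, n = 2). With the Lsd1 antibody it was 99.2 and 97.8, averaging 98.5 ± 0.946 (SD, n = 2). Over all protein-coding genes with a peak the medians were 82.5, 77.5, 79.3 and 81.2 in the order Gfi1 tumor 39, Gfi1 tumor 41, Lsd1 tumor 39 and Lsd1 tumor 41, an order kept below. A peak in the upper 20% of the score was found at 58, 59, 65 and 60 histone genes, against 38%, 26.4%, 30.2% and 34.1% of all protein-coding genes. At 57 histone genes this was so in all 4 libraries, against 21.5% of all genes. A percentile of 95 or more was reached by 30, 46, 54 and 44 histone genes, while 11%, 7.64%, 9.08% and 9.99% of all protein-coding genes reached it. Gfi1 in tumor 39 thus had the smallest number of the 4 libraries in this upper range, although its list was the longest, with 36836 peaks against 25078, 30367 and 33213.

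**Figure D1:**
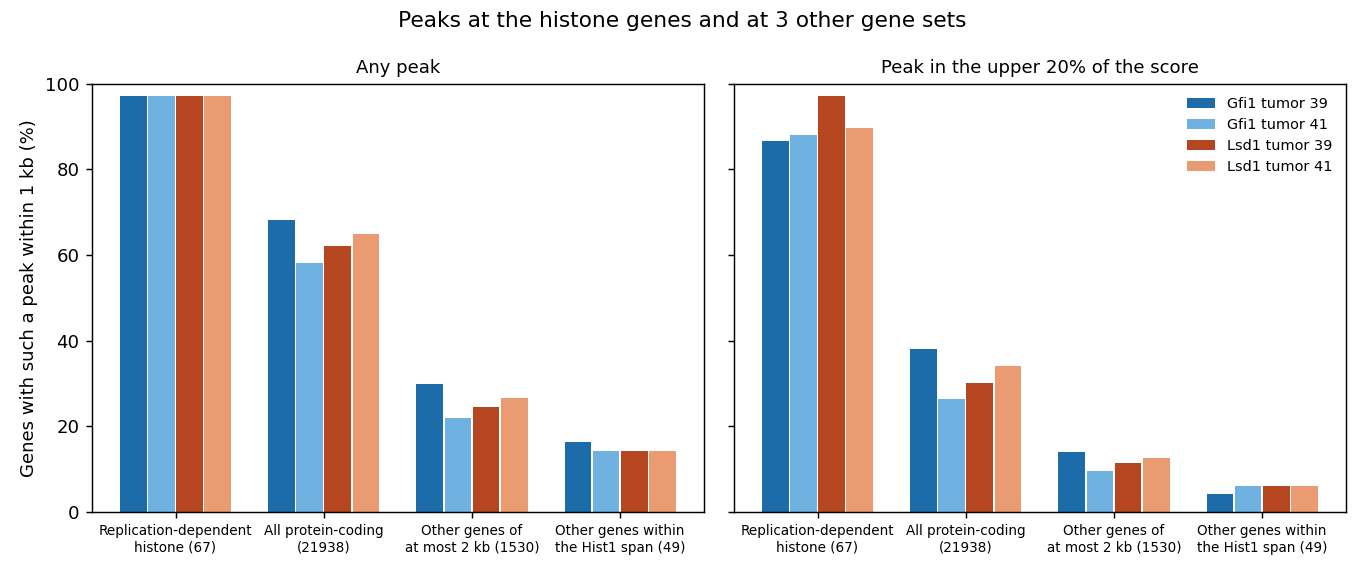
Share of genes (y axis, percent) with any peak within 1 kb (left) and with a peak in the upper 20% of the score (right), with a bar for each library, in the 67 replication-dependent histone genes, all 21938 protein-coding genes, 1530 other genes of at most 2 kb and 49 non-histone genes within the Hist1 span. The histone genes stood at 97.0% in all 4 libraries on the left, above the 58.1% to 68.1% of all protein-coding genes.

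A percentile among peaks sets the histone genes against many peaks far from any gene. When the rank was taken instead among the 12408 protein-coding genes with a peak in all 4 libraries, a measure chosen after seeing the data, the median rank percentile of the 65 genes was 79.5, 94.3, 97.2 and 92.2. On this scale too, Gfi1 in tumor 39 gave the lowest value.

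Part of the ranking rests on tied scores. A score of 3100 is shared by 805, 12, 113 and 419 peaks of the lists, and 19, 0, 25 and 25 histone genes had their highest peak at this value, under 7, 0, 8 and 9 different peaks. The tied peaks stand at percentiles 98.6, 99.97, 99.7 and 99.2, and no order can be given among them. In Gfi1 tumor 39 the 3 genes Hist1h2bf, Hist1h2ad and Hist1h3d lay above the tie, at 99.8.

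Among the 5 histone types, H4 genes had the lowest median percentile in every library. The medians for H4 were 85.9, 89.0, 92.6 and 90.4. For H1 they were 93.9, 96.3, 97.5 and 96.9, for H2A 96.8, 99.3, 99.7 and 99.2, for H2B 93.9, 96.1, 99.4 and 96.9, and for H3 96.1, 98.6, 99.3 and 98.6. The types overlapped widely, since single H4 genes reached 98.6, 99.8, 99.7 and 99.2. An upper 20% peak was found at 7, 8, 13 and 9 of the 13 H4 genes, but at all 17 H2A genes with a peak and all 12 H3 genes in every library. Peaks over the coding start alone gave H4 medians of 85.9, 89.0, 92.6 and 87.0.

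**Figure D2:**
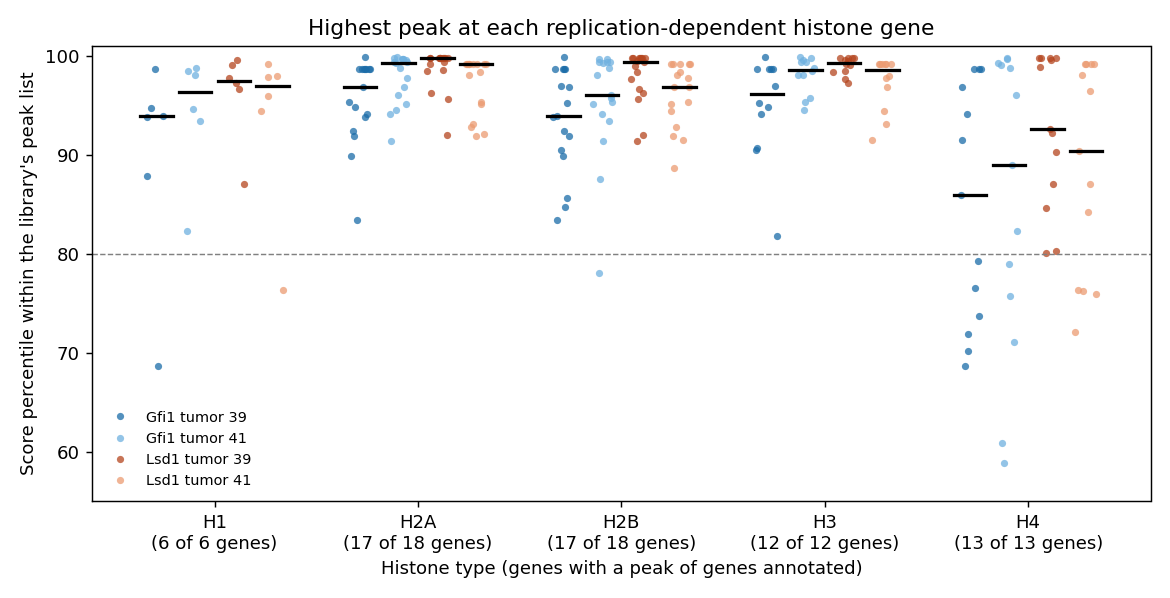
Score percentile of the highest peak within 1 kb of each gene (y axis), by histone type (x axis) and library (color), with each point a gene and each black bar the median over genes. The dashed line marks the lower edge of the upper 20%, and H4 has the lowest median in each of the 4 libraries (85.9 to 92.6), with genes on both sides of the line.

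In each type the genes with the highest and the lowest mean percentile over the 4 libraries were taken. Hist1h1a, a linker histone gene, stood at 98.6, 98.7, 99.5 and 99.2, under a peak that it shares with Hist1h3a and Hist1h4a. For H2A, H2B and H3 the highest were Hist1h2ad, Hist1h2bf and Hist1h3d, which lie under the same peak and therefore have the same values, 99.8, 99.4, 99.7 and 99.2. The highest H4 gene, Hist1h4m, stood at 98.6, 99.3, 99.7 and 99.2. These 3 peaks thus hold the highest gene of all 5 types.

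The lowest H4 gene was Hist1h4b, with 71.9, 60.9, 84.6 and 72.1. It was below the upper 20% in 3 of 4 libraries and lay under a peak of its own that was 1328 bp, 1996 bp, 2532 bp and 1361 bp wide. The lowest H3 gene, Hist1h3f, stood at 90.5, 95.4, 97.7 and 91.5, under a peak that it shares with Hist1h2bh. The lowest H1 gene was Hist1h1t, the testis linker histone. Within 1 kb of it the highest peak was at 68.7, 82.3, 87.0 and 76.3, but this peak lies over the coding start of its neighbor Hist1h4c. A peak over the coding start of Hist1h1t itself was listed in Gfi1 tumor 39 at 43.9 and in Lsd1 tumor 41 at 44.1, with widths of 1135 bp and 917 bp, and not in the other libraries. Hist1h1t, Hist1h2aa and Hist1h2ba were therefore without a peak over their coding start in Gfi1 tumor 41 and Lsd1 tumor 39.

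The genes outside Hist1 had peaks in all 4 libraries. Hist2 had the highest medians of the clusters for Gfi1, 98.6 and 99.7, and stood at 99.4 and 99.2 for Lsd1. Its lowest gene in Gfi1 tumor 39 was Hist2h4 at 94.1. In Hist3, Hist3h2a stood at 95.4, 96.9, 98.6 and 92.1 and Hist3h2ba at 85.7, 87.5, 98.9 and 96.8, so that Hist3h2ba was lower than Hist3h2a in the Gfi1 libraries and higher in the Lsd1 libraries of both tumors. Hist4h4, which lies apart from the clusters, stood at 76.5, 78.9, 92.6 and 76.2. In Lsd1 tumor 39 its peak was 9421 bp wide and also reached H2afj, a replacement H2A gene, while in the other libraries it was 2559 bp, 2880 bp and 2557 bp wide. The first and the second Hist1 stretch had medians of 96.8 and 93.9, 96.1 and 98.0, 99.7 and 99.4, and 98.1 and 96.0 in the 4 libraries, so that their order was not the same in all.

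Promoters of the genes that stand highest and lowest in H1, H2A and H4 are shown, so that the sequences at both ends of the range can be compared. They are the 250 bases before the start in RefSeq (GRCm38.p6, the build of mm10), with CCAAT and TATAAA in capitals on either strand, so that ATTGG and TTTATA are marked too.
Hist1h1a (H1, chr13:23763418-23763667, plus strand): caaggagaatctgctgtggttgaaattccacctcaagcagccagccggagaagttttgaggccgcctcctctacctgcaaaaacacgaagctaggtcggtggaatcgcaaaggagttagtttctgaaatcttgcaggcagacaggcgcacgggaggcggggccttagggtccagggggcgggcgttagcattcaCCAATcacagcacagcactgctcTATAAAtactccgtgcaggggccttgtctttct
Hist1h1t (H1, chr13:23695561-23695810, plus strand): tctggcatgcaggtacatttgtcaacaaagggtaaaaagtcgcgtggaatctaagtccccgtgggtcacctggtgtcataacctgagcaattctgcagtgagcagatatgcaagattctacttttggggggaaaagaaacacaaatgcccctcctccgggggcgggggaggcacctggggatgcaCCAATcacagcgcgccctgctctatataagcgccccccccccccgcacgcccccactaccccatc
Hist1h2ad (H2A, chr13:23574131-23574380, plus strand): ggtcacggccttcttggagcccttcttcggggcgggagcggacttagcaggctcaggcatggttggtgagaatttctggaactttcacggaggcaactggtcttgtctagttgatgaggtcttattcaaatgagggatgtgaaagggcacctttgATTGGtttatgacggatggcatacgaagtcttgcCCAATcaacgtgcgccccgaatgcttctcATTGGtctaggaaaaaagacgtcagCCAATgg
Hist1h2aa (H2A, chr13:23934187-23934436, plus strand): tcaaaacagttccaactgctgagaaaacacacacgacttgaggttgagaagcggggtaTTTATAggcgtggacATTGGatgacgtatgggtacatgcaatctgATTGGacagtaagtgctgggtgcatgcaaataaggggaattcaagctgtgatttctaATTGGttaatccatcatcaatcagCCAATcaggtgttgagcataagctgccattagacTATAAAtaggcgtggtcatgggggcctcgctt
Hist1h4m (H4, chr13:21811496-21811745, plus strand): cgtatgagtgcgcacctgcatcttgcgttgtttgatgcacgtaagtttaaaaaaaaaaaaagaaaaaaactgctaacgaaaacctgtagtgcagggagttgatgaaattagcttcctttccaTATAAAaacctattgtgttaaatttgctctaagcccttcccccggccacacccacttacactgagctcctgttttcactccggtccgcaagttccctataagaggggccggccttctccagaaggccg
Hist1h4b (H4, chr13:23756687-23756936, plus strand): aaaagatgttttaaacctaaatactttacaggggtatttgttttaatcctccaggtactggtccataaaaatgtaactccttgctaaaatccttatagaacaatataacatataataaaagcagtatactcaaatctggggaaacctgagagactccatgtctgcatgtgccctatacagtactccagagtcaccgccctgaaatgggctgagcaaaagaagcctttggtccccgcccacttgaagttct
The promoter of Hist1h2ad holds 4 CCAAT letters and no TATAAA. That of Hist1h2aa, which had no peak, holds 4 and 2. The bases printed for Hist1h2aa all lie between its coding start and that of Hist1h2ba, and so lie before both genes. Those printed for Hist1h2ad begin within the coding sequence of Hist1h2bf, which lies head to head with it. Neither motif is in the 250 bases before Hist1h4b, while Hist1h4m has 1 TATAAA and no CCAAT.

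RefSeq promoters of 250 bases before to 50 bases after the start were matched for 62 of 67 genes, which have 63 such promoters. Those of Hist2h2be, Hist2h4, Hist1h3f, Hist1h2bc and Hist1h3a were not matched. CCAAT, the letters bound by the NF-Y complex, was found on either strand in 85.7% of the histone promoters and in 38.2% of all 21263. It was found in every promoter matched of H1, H2A, H2B and H3, and in 3 of 12 of H4. At least 2 CCAAT were found in 71.4% against 12.8%, and the mean number was 3 in H2A, 3.29 in H2B, 2.50 in H3, 1.33 in H1 and 0.333 in H4. Promoters of H2A and H2B genes that lie head to head overlap, with 278 to 334 bases between their coding starts. The same letters can thus be counted for both genes, and H2A and H2B are not separate observations. H4 thus stood lowest both in CCAAT and in percentile, which is a description over 5 types whose genes share peaks. The other types did not keep the same order in both. H2B had the highest mean number, 3.29, but its median percentile was below that of H2A in every library. The pair without a peak, Hist1h2ba and Hist1h2aa, had a mean number of 4. A link between the number and the percentile was not tested.

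TATAAA was found in 55.6% of the histone promoters and in 12.6% of all. ATTTGCAT, the octamer of Oct1, was found in 22.2% and 1.66%, and only in H2A (7 of 18) and H2B (7 of 17) among the histone types. Because promoters of head-to-head pairs overlap, the same octamer can be counted in both types. AATC, which the letters CCAATC contain, was found in 93.7% and 70.8%. The pair without a peak, Hist1h2ba and Hist1h2aa, held all 4 motifs in both promoters. These promoters overlap, so that the same letters can be counted for both genes. The median number of CpG in these 300 bases was 11 in histone promoters, against 13 in all promoters, and was 7.5 in the pair without a peak.

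Because the genes lie close together, a peak often covered several of them. The 65 genes were reached by 40, 42, 39 and 40 different peaks, with a mean of 1.78, 1.79, 1.90 and 1.85 members within 1 kb of a peak. At least 2 histone coding starts lay under 19, 20, 19 and 20 of these peaks, and at least 3 under 7, 8, 8 and 8. The largest number of starts was 3 in both Gfi1 libraries and in Lsd1 tumor 41, and 5 in Lsd1 tumor 39, where a peak of 7552 bp ran from Hist1h2ae over Hist1h2bg, Hist1h2bf and Hist1h2ad to Hist1h3d. The same 5 genes lay under 2 peaks in each of the other libraries.

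The peaks were wide. Their median width was 2814 bp and 3008 bp for Gfi1, a mean of 2911 bp ± 138 (SD, n = 2), and 3672 bp and 3410 bp for Lsd1, a mean of 3541 bp ± 185 (SD, n = 2). Over all peaks of the lists the medians were 1443 bp, 1596 bp, 1765 bp and 1606 bp, but over peaks in the upper 20% of the score they were 2542 bp, 2850 bp, 3409 bp and 3079 bp. The peaks at histone genes were thus much closer in width to other peaks of high score than to the whole list. The widest peaks at these genes measured 6328 bp over Hist1h2bq, Hist1h2ao and Hist1h4m in Gfi1 tumor 39, 7798 bp at Hist3h2a in Gfi1 tumor 41, 9421 bp at Hist4h4 in Lsd1 tumor 39 and 6881 bp over Hist1h4h, Hist1h2af and Hist1h3g in Lsd1 tumor 41. The last 3 genes lay under single peaks of 7176 bp and 7218 bp in Gfi1 tumor 41 and Lsd1 tumor 39, and under 2 peaks in Gfi1 tumor 39.

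Peaks over more coding starts were wider and ranked higher. With 1 start the median width was 2401 bp, 2568 bp, 3068 bp and 2557 bp and the median percentile 85.2, 84.9, 92.4 and 88.6. With 2 starts the width was 3018 bp, 3458 bp, 4097 bp and 3571 bp and the percentile 94.0, 96.7, 98.4 and 96.1. With 3 starts it was 3911 bp, 4682 bp, 5658 bp and 4561 bp, at percentiles 98.6, 99.4, 99.7 and 99.2. This order held in each of the 4 libraries, and the lowest peak with 3 starts was at 96.8, 96.1, 99.5 and 98.1. Where genes lie this close, a wider peak covers more starts, so the number of starts is not independent of the width. Peaks of high score were also wider in the whole lists. The order is thus partly built into the grouping. Peaks within 1 kb of a gene but over no histone coding start were few, 1, 6, 4 and 3, with median percentiles of 27.1, 14.1, 14.9 and 45.6.

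**Figure D3:**
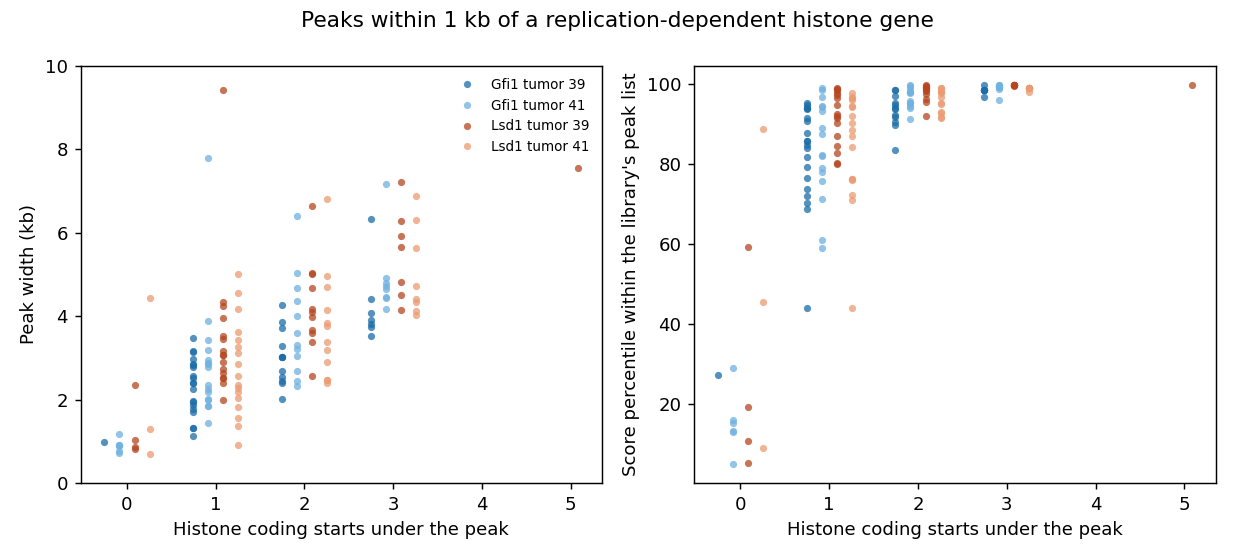
Width in kb (left) and score percentile (right) of each peak within 1 kb of a replication-dependent histone gene, against the number of histone coding starts under it (x axis), colored by library. The medians are higher with 3 starts than with 1 in every library, and the single peak over 5 starts was 7552 bp wide in Lsd1 tumor 39. The number of starts is not independent of the width.

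The genes were then divided by whether the peak over their coding start covers another histone start. In all 4 libraries 45 genes shared their peak and 16 had it alone. The medians were 97.0, 98.7, 99.7 and 99.2 in the shared genes, and 85.2, 84.9, 92.4 and 89.5 in the genes alone. Of the 16 genes alone, 8 encode H4, namely Hist2h4, Hist4h4, Hist1h4j, Hist1h4k, Hist1h4f, Hist1h4d, Hist1h4c and Hist1h4b, while 4 of 13 H4 genes shared a peak in all 4 libraries. Of the others, Hist1h2be is annotated as far as Hist1h1e and had its highest peak there, at 93.9, 93.4, 96.6 and 94.4, while the peak over its own coding start was at 83.9, 82.0, 92.2 and 90.4.

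The low ranks of H4 were found in the genes alone. The 8 H4 genes alone had medians of 75.1, 77.4, 85.8 and 76.2, with Hist2h4 well above the others at 94.1, 99.1, 98.9 and 96.4. The 8 genes of other types alone had medians of 92.3, 93.9, 96.9 and 94.4. The 4 H4 genes under shared peaks stood at 98.6, 99.0, 99.7 and 99.2. H4 was thus low beside other types among genes alone, and not among genes that shared a peak, where the value belongs to the peak and not to the gene. These groups were formed from the same peaks as the ranks, and the differences were not tested.

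Head-to-head pairs are a feature of these clusters. With coding starts facing away from each other and at most 1000 bases apart there were 12 pairs, all of H2A with H2B, with 278 to 334 bases between the coding starts. In 11 pairs a single peak covered both starts in all 4 libraries. The twelfth was the pair Hist1h2ba and Hist1h2aa, with 305 bases between the starts and no peak. Hist1h2ak with Hist1h2bn was the lowest of the 11 in both libraries of tumor 39, at 83.4 for Gfi1 and 92.0 for Lsd1. In tumor 41 the lowest were Hist1h2ah with Hist1h2bk for Gfi1, at 91.4, and Hist1h2an with Hist1h2bp for Lsd1, at 91.9. All 11 pairs thus stood in the upper 20% of every list. The spacing of the testis pair was thus within the range of the others.

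Peaks lay over the coding start and reached past both ends of most genes. The coding start was under a peak in 97.0%, 95.5%, 95.5% and 97.0% of the 67 genes, and in 46.1%, 36.1%, 40.9% and 43.7% of the 21871 other genes. In 64 genes this was so in all 4 libraries. Every coding base was under a peak in all 4 libraries in 61 genes, against 3.09% of all protein-coding genes and 13.6% of the other genes of at most 2 kb. The 6 exceptions were Hist1h2bp, Hist1h2bq, Hist1h2br, Hist1h1t, Hist1h2ba and Hist1h2aa.

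From the coding start the peaks reached a median of 1590 bp, 1882 bp, 2238 bp and 1879 bp upstream and 1228 bp, 1598 bp, 1787 bp and 1547 bp downstream. At other genes the reach was 1030 bp, 1114 bp, 1282 bp and 1201 bp upstream and 990 bp, 1049 bp, 1172 bp and 1106 bp downstream. The histone coding sequences are shorter than this reach, so that both promoter and gene end were covered. At 2000 bp upstream 40.3%, 49.3%, 59.7% and 47.8% of the histone genes were still under a peak.

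**Figure D4:**
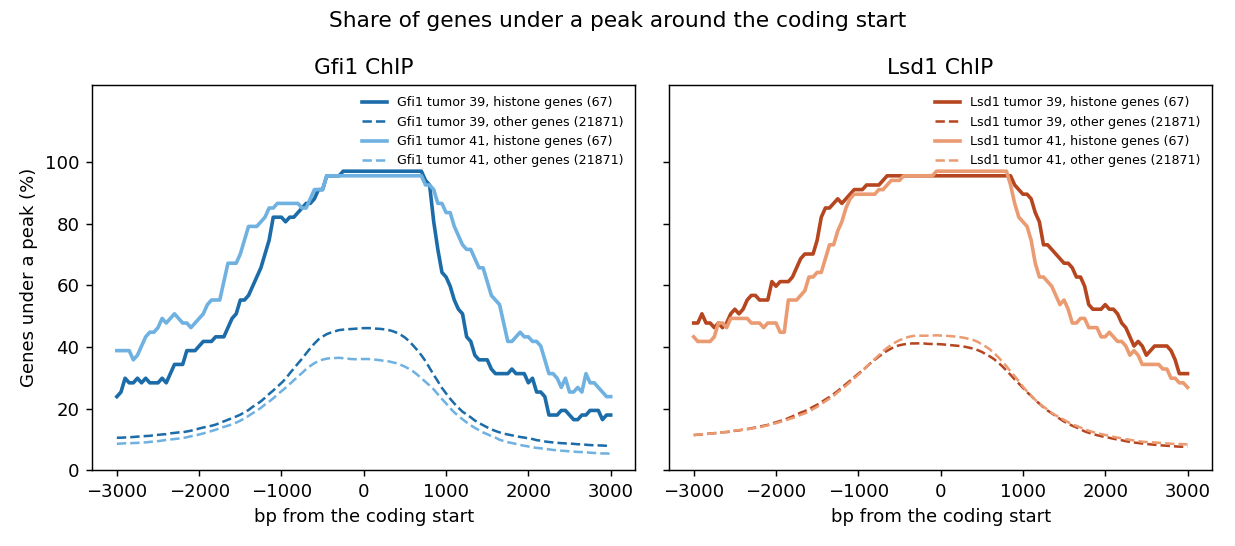
Percent of genes under a peak (y axis) at each distance in bp from the coding start along the gene (x axis), for Gfi1 (left) and Lsd1 (right), with solid lines for the 67 replication-dependent histone genes and dashed lines for the 21871 other genes. At the coding start the solid lines stand at 95.5% to 97.0% and the dashed lines at 36.1% to 46.1%.

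Gfi1 and Lsd1 were compared at the same genes within each tumor, since both libraries of a tumor come from the same tissue. In tumor 39 the Gfi1 percentile was lower than that of Lsd1 at 62 of 65 genes, with a median difference of -3.17. In tumor 41 it was higher at 46 of 65, with a median difference of 0.347. Tied scores set some of these signs. In tumor 39 the tied score stands at 98.6 for Gfi1 and 99.7 for Lsd1, so genes tied in both lists count as lower for Gfi1. In tumor 41 the 25 genes tied for Lsd1 stand at 99.2, the highest Lsd1 value of any histone gene there. Over all protein-coding genes with both peaks the medians were 4.92 in tumor 39 (70.4% of genes higher for Gfi1) and -4.70 in tumor 41 (30.0% higher), so that in both tumors the histone genes lay in the opposite direction to genes at large. With 2 tumors of opposite direction no difference between the factors can be called, and none was tested. Pairing the libraries by tumor gave a mean difference of -1.41, against -2.10 ± 3.30 (SD, n = 2) for the difference of the library medians.

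The largest difference between the factors was at the H4 gene Hist1h4d in both tumors, with Gfi1 at 70.2 and Lsd1 at 92.2 in tumor 39, and 58.8 and 90.4 in tumor 41. In both Lsd1 libraries, though, the highest peak within 1 kb was the peak over the coding start of Hist1h2be, and the peak over the coding start of Hist1h4d was at 82.8 and 71.1. In all, 19 genes stood lower in Gfi1 than in Lsd1 in both tumors. Only Hist1h2bf, Hist1h2ad and Hist1h3d, under a single peak that was tied in both Lsd1 libraries, stood higher in both. Counts over both tumors were not made for all genes, and genes that share a peak are each counted.

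Between the tumors, Gfi1 was lower in tumor 39 than in tumor 41 at 51 of 65 genes (median difference -1.10). Over all genes the median was 7.00, with 76.7% of genes higher in tumor 39. Lsd1 was higher in tumor 39 at 61 of 65 (median 0.993), while over all genes the median was -2.26, with 34.7% of genes higher in tumor 39. Tied scores set some of these signs too. The tied score stands at 99.7 in Lsd1 tumor 39 and 99.2 in Lsd1 tumor 41, so genes tied in both count as higher in tumor 39. For Gfi1, 19 genes were tied at 98.6 in tumor 39 and 0 in tumor 41. The Gfi1 peaks of tumor 39 were also narrower than those of tumor 41 at 54 genes, and the Lsd1 peaks of tumor 39 wider at 46. Widths were not compared in this way over all genes.

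**Figure D5:**
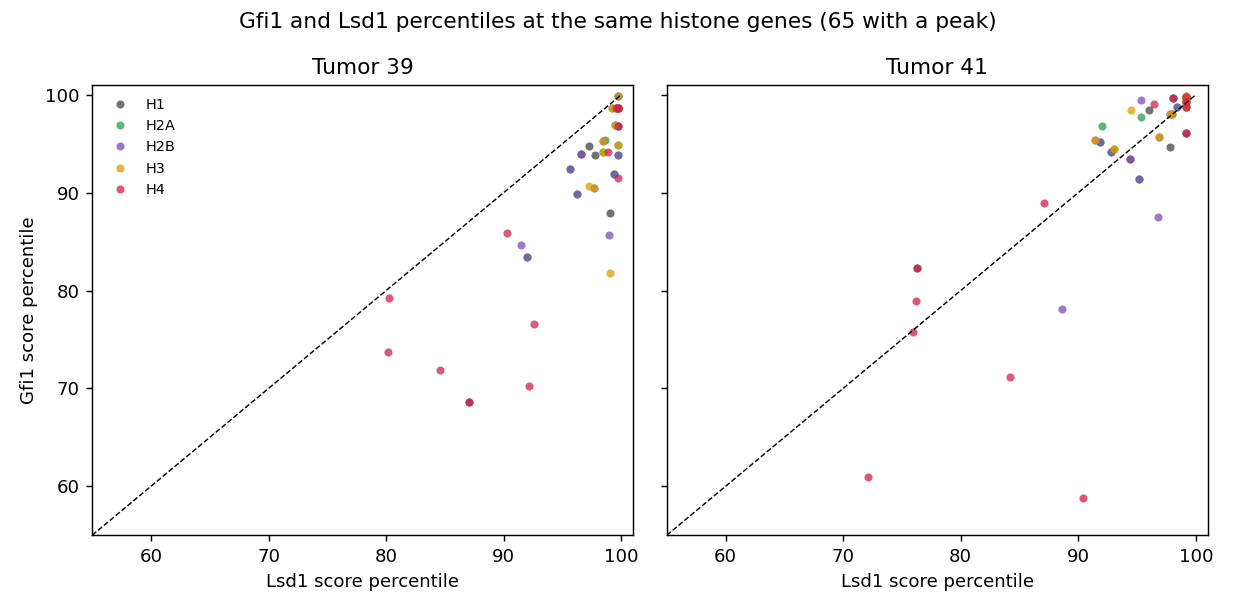
Gfi1 (y axis) against Lsd1 (x axis) score percentile of the highest peak at each replication-dependent histone gene, for tumor 39 (left) and tumor 41 (right), with each point a gene, colored by type, and the dashed line marking equal percentiles. In tumor 39, 62 of 65 points lie below the line, and in tumor 41, 46 of 65 lie above it.

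Some copies are so alike that a single read of 100 bases within a shared stretch fits more than 1 place. The paper lists paired-end reads of this length, and whether the other read of a pair would place it was not examined. Of the 67 genes, 57 share at least 1 stretch of 100 coding bases with another place at these genes (coding sequence and 1 kb on either side, both strands), and in 38 genes over 50% of such stretches are shared. In 10 genes over 50% of the stretches in this whole window are shared, namely Hist2h3c2, Hist2h2aa2, Hist2h2aa1 and Hist2h3c1 of Hist2 and Hist1h2bq, Hist1h2ao, Hist1h4m, Hist1h4n, Hist1h2ap and Hist1h2br of Hist1, and the value of each of these is uncertain. The 10 genes without a shared coding stretch, 9 of them with a peak, had medians of 94.1, 96.9, 98.6 and 96.4, against 94.8, 98.3, 99.4 and 98.0 in the other 56 with a peak. The 38 genes with over 50% of coding stretches shared stood higher, with medians of 96.0, 99.0, 99.7 and 99.2. The part of shared sequence in the ranks was not tested. How reads with several matches were placed is not given in the sources used here.

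Peaks were also listed between the histone genes. Of 49 non-histone protein-coding genes within the Hist1 span, many of them Vmn1r pheromone receptor genes, 7 had a peak in all 4 libraries, 1 in a single library and 41 in none, and none of them lies within 2 kb of a histone gene. The 7 were Zfp184, Prss16, Zfp322a, Abt1, Btn1a1, Hfe and Slc17a1. Abt1 was the highest of them, at 84.6, 94.0, 98.0 and 89.2 (mean 91.5), followed by Zfp184 with a mean percentile of 84.9, and both were below the median of the histone genes in each library. With each histone peak counted once, though, the median in Lsd1 tumor 39 was 97.7, which is below Abt1. Peaks at no histone gene numbered 19, 13, 18 and 20 in the first Hist1 stretch, with median percentiles of 44.8, 43.0, 44.8 and 30.4, and 2, 4, 5 and 5 in the second, of 31, 26, 29 and 32 peaks in the first stretch and 21, 24, 22 and 23 in the second. In the first stretch they thus made up at least as many peaks as those at histone genes, with lower median percentiles. Of the first stretch 18.2%, 17.5%, 21.1% and 19.5% of the bases were under a peak, and of the second 12.2%, 15.1%, 17.8% and 16.4%.

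Genes of related function were read in the same way. All 11 replication-independent histone genes, 19 genes of histone gene expression and mRNA processing and 15 histone chaperone genes had a peak in all 4 libraries. Their median percentiles were 94.6, 88.7, 92.6 and 96.7, then 93.4, 91.0, 87.1 and 92.6, and then 93.8, 89.9, 97.0 and 92.5. All 3 medians were below that of the replication-dependent genes in each of the 4 libraries, but by little in Gfi1 tumor 39, where the latter stood at 94.7. This order depends on counting shared peaks for each gene. With each peak at the replication-dependent genes counted once, their medians were 92.1, 94.6, 97.7 and 94.8, below all 3 lists in Gfi1 tumor 39 and below the replication-independent genes in Lsd1 tumor 41. In Gfi1 tumor 39 a percentile of 95 or more was reached by 44.8% of the replication-dependent genes, 45.5% of the replication-independent genes, 31.6% of the genes of expression and processing and 46.7% of the chaperone genes. In Gfi1 tumor 41, Lsd1 tumor 39 and Lsd1 tumor 41 these shares were 68.7%, 80.6% and 65.7% for the replication-dependent genes. For the 3 lists, in the same order, they were 36.4%, 27.3% and 54.5%, then 21.1%, 21.1% and 15.8%, and then 33.3%, 53.3% and 46.7%. Shared peaks count for each gene here too. The median of 92.6 for the replication-independent genes in Lsd1 tumor 39 is the value of H2afj, whose peak there also covers the coding start of Hist4h4. H2afx, which marks broken DNA and also held the stem-loop, stood at 99.98, 95.6, 95.9 and 97.0, and H1f0, a linker histone of resting cells, at 98.6, 97.6, 99.0 and 99.2. H2afz was at 87.6, 86.6, 97.2 and 97.1, H3f3a at 98.6, 89.0, 85.5 and 97.5, and H3f3b at 98.6, 98.3, 90.5 and 96.7. Npat, the coactivator of replication-dependent histone transcription, stood at 95.5, 95.6, 90.5 and 92.6, and Slbp, which binds the stem-loop, at 96.7, 92.5, 91.1 and 94.2. The lowest means of the lists were 62.8 for H2afy2, 67.5 for Cstf2 and 71.8 for Rbbp7.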

How the data were processed

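ChIP-seq for Gfi1 and Lsd1 was analysed from 2 MG tumors, 39 (replicate 1) and 41 (replicate 2), paired because the labels put the same tumor under both antibodies. The authors aligned reads to mm10 with BWA 0.6.2 (-q 20, per the methods and processing notes), merged files with Picard, removed duplicates, and ran MACS with its default settings against input, once for each library. In the deposited lists every peak has its coordinates and a score, with no definition of the score and no read counts. Read depth and precision at each peak are thus unknown. The paper gives mapped reads for each library. They were fewer in tumor 39 than in tumor 41 for Gfi1, and more in tumor 39 for Lsd1. Scores were ranked within a list only (mid-rank percentile). Lists were read against GENCODE release M21 (the authors used M9) and RefSeq GRCm38.p6 with numpy 2.4.6, scipy 1.17.1 and matplotlib 3.10.9 under Python 3.11.15. Overlap and ranking were tested on simulated data, and 200 of 200 planted peaks were found. No test was run, since there are 2 libraries a factor and genes share peaks. Errors are SDs over tumors.

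The members and the lists of other genes were chosen with earlier results of these data known. Genes were named by a rule (highest and lowest of each type, genes without a peak, testis genes, Hist3 and Hist4, genes under the widest peaks, 7 genes of the other lists and the lowest of each), and any other gene was named after its values were seen. Alternatives varied the window, score cutoff, background, peak taken, rank, pairing and the library left out. The input was not analysed here.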

Additional observations from a re-analysis of the deposited data

Results flagged for a closer look

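The difference between Gfi1 and Lsd1 at the replication-dependent histone genes had opposite signs in the tumors. The median over the 65 genes with a peak of the Gfi1 minus the Lsd1 percentile was -3.17 in tumor 39, where 62 genes were lower for Gfi1, and 0.347 in tumor 41, where 46 were higher. With a single library for each factor and tumor, the difference between the tumors was not tested. Among the 12408 protein-coding genes with a peak in all 4 libraries, the same medians in rank percentile were -13.3 and 2.14, with 62 genes lower and 50 genes higher. The lists differ in length (36836 and 30367 peaks in tumor 39, 25078 and 33213 in tumor 41) and in tied scores. The libraries also differ in depth, with fewer mapped reads for Gfi1 and more for Lsd1 in tumor 39 than in tumor 41. The part of length, ties and depth in the result was not tested.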

How the results depend on the processing

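Of 96 alternative values, 64 moved by less than the spread between the tumors, or for counts by less than 1.5 times, 32 moved by more and 0 changed sign. A change of sign was possible only for the Gfi1 minus Lsd1 difference, since counts, shares, widths and percentiles have no sign. Its main value of -2.10 is smaller in size than its SD of 3.30 between the tumors. The number of genes with a peak in all 4 libraries was 56 to 65 under every window, score cutoff and coverage tried, and 65 without any single library (65 to 65). Without Hist1h1t, Hist1h2aa, Hist1h2ba and Hist3h2ba it was 63. Genes of at most 2 kb as background gave 29.9%, 22.0%, 24.4% and 26.6% with a peak, in the order Gfi1 tumor 39, Gfi1 tumor 41, Lsd1 tumor 39 and Lsd1 tumor 41, 20.6% in all 4 libraries, and median percentiles of 78.6 and 78.1 in Gfi1 tumor 39 and Lsd1 tumor 41. With each peak counted once, the median percentile at the histone genes was 92.1, 94.6, 97.7 and 94.8, as peaks over several genes then weigh less. Ranked among genes with a peak in all 4 libraries, it was 79.5, 94.3, 97.2 and 92.2. Median widths were 3031 bp, 4178 bp, 4332 bp and 4034 bp with each gene counted, and 3018 bp, 3748 bp, 3991 bp and 3939 bp for peaks in the upper 20%. The mean number of genes at a peak was 1.85, 1.83, 2.00 and 1.93 with all protein-coding genes counted, and 1.65, 1.64, 1.74 and 1.78 when the gene body had to be touched. The Gfi1 minus Lsd1 difference of -2.10 was -7.80 with the rank among genes, -1.41 with the libraries paired by tumor, and -3.76 to -0.436 without any single library. The rank among genes and the peak over the coding start were added after seeing the data. For the values that moved, the cause was not tested.

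The lists hold no read counts, so that a peak missing from a list cannot be told apart from too few reads, and scores tied at the upper end cannot be ordered. The series has 2 tumors, and the input was not analysed here, so that chromatin without antibody at the histone genes is unknown. Copies of these genes share sequence, peaks over several genes give them a single value, and the tumor tissue was not separated by cell type.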
